A study of Mus musculus with 24 samples.

Results

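The genes described are 31 mouse sterol genes out of the 55401 genes in the RNA-seq table. They were taken by gene symbol from a written list of the pathway, chosen with earlier results of these data known. The list holds 9 genes of cholesterol synthesis up to squalene, 10 genes that turn squalene into cholesterol, 5 genes that control the transcription factor SREBP, 3 efflux genes or genes induced by the oxysterol receptor LXR (Abca1, Abcg1 and Mylip), and 4 genes of sterol transfer, storage and lysosomal export. All 31 were in the table, and all 31 passed the filter on low counts that left 14749 genes for testing. CD8 T cells of C57BL/6J mice, a wild-type inbred strain, were purified with magnetic beads from spleen and lymph nodes, activated for 3 days with anti-CD28 and IL-2 in medium that also held β-mercaptoethanol, and treated from day 2 to day 3. Sodium lactate with Oxyrase, sodium pyruvate, sodium lactate and sodium chloride (NaCl) were the 4 treatments, and the 3 salts were each given at 20 mM. Oxyrase is a commercial enzyme preparation from bacterial membranes that removes dissolved oxygen from culture medium. It was given together with lactate and in no other group, so it was compared with lactate alone, and its dose and the oxygen reached are not given in the sources used here. Each group had 3 RNA-seq and 3 ATAC-seq libraries, which makes 24 libraries. The ATAC-seq libraries record open chromatin through insertions of a transposase.

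Cholesterol is built from acetyl-CoA through mevalonate to farnesyl diphosphate, and joining farnesyl units gives squalene. Squalene is then oxidised, closed into lanosterol and trimmed to cholesterol, and several of those late steps use molecular oxygen. The genes of the pathway are switched on together by SREBP2, with SREBP1 acting more on fatty acid genes. SREBP is carried by SCAP out of the endoplasmic reticulum for cleavage, and INSIG proteins hold SCAP back when sterols are plentiful. Oxysterols formed from surplus cholesterol activate LXR, which induces the exporters ABCA1 and ABCG1 and the ubiquitin ligase MYLIP. Activated T cells make cholesterol for new membranes as they grow and divide.

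SREBP binds sterol response elements, usually beside CCAAT boxes bound by the factor NF-Y, so promoter sequences of 5 members that recur below are shown first. Each is the RefSeq window of GRCm38.p6 from 250 bases before to 50 bases after the annotated start, 5′ to 3′ on the gene's strand. Capitals mark CCAAT, or its reverse complement on the other strand, and TCACNCCAC, the form of the sterol response element searched. Hmgcs1 (the first enzyme past acetoacetyl-CoA), Mvd (the mevalonate decarboxylase) and Insig1 (the SREBP brake) had some of the largest decreases with Oxyrase. Idi1 and Idi2 are neighbouring isomerase genes whose transcripts moved in opposite directions with Oxyrase. The windows are chr13:119690101-119690400 (plus strand) for Hmgcs1, chr8:122443373-122443672 (minus strand) for Mvd, chr5:28071162-28071461 (plus strand) for Insig1, chr13:8885356-8885655 (plus strand) for Idi1 and chr13:8952613-8952912 (plus strand) for Idi2.
Hmgcs1: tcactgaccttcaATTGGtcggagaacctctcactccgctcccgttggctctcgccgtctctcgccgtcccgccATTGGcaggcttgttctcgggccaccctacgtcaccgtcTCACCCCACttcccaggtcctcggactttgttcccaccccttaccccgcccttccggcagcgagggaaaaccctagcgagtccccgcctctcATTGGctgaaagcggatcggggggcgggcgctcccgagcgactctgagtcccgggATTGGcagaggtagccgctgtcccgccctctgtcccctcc
Mvd: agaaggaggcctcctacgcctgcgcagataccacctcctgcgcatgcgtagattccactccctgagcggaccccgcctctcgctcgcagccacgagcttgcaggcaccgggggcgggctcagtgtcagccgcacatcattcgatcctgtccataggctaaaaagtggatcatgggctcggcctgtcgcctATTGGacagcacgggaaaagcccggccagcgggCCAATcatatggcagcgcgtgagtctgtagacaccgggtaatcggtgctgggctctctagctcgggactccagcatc
Insig1: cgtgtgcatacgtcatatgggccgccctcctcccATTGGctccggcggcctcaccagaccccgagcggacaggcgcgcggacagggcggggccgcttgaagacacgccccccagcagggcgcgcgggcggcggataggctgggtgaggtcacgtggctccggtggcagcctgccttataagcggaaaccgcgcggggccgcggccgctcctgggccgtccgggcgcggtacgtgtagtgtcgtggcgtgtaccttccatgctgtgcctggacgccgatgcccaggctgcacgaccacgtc
Idi1: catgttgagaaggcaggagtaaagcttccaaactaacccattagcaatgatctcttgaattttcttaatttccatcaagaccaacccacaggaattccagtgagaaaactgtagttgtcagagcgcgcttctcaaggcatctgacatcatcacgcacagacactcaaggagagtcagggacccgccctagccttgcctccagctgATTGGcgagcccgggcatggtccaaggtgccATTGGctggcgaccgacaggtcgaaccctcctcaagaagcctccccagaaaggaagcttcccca
Idi2: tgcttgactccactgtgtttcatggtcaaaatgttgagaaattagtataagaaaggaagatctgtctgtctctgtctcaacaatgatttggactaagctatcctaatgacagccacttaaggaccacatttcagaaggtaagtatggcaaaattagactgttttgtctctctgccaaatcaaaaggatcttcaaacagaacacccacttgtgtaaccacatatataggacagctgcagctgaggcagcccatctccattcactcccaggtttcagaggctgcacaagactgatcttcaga
The Hmgcs1 window held 4 CCAAT matches and 1 sterol response element match. Mvd held 2 CCAAT matches, Idi1 held 2, Insig1 held 1 and Idi2 held 0.

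The promoter table matched 25 of the 31 members. A CCAAT match on either strand was present in 21 of these 25 (84.0%), against 41.1% of the 27025 genes in the promoter table and 43.2% of the 10170 tested genes with a promoter. Among the synthesis genes 14 of 16 had a match, the exceptions being Idi2 and Acat2, and all 9 matched genes after squalene had one. The strict TCACNCCAC was found only in Hmgcs1 among the 25, against 1.44% of all promoters. The LXR element DR4, searched in its strict consensus form, was found in 0 of the 25 members and in 4 of the 27025 genes. These are matches of letters within 300 bases, not measured binding. In the printed windows the only sterol response element match, that of Hmgcs1, did not overlap a CCAAT match.

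RNA libraries held 26.04 to 39.64 M counts and ATAC libraries 25.31 to 37.07 M counts (M, mega). Levels are given as counts per M counts (CPM) of library sizes scaled by the trimmed mean of M-values, in the order replicate 1, 2 and 3, and are compared between groups, not between genes, because transcript length is not divided out. A count of 0 allows for up to 3 counts, which equal 0.0759 to 0.116 CPM in RNA, for counting error only. Changes are log2 fold changes ± SE from 1 edgeR quasi-likelihood fit to all 12 libraries, with p adjusted over all genes tested, and "rose" and "fell" are used only where the adjusted p was under 0.05. Nothing in the labels says whether libraries of a group came from separate mice or cultures. The p-values thus measure the spread between these samples, which may be technical, and an apparent earlier adjustment of the RNA table by replicate number would have narrowed it. Of markers of the purified cell, the summed level of 6 CD8 T cell genes was 1162 to 1227 CPM with lactate+Oxyrase, 1521 to 1567 CPM with pyruvate, 1587 to 1681 CPM with lactate and 1711 to 1727 CPM with NaCl. Markers of B cells, NK cells and CD4 T cells each summed to under 1 CPM in every library.

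Lactate+Oxyrase was set against lactate, with the same amount of lactate added to both. The comparison reads the Oxyrase preparation as a whole. Transcripts of cholesterol synthesis fell on both sides of squalene: 18 of the 19 listed genes were lower, and Idi2 alone of the 19 rose. The list does not hold every enzyme of the route. Over the 31 members 23 fell and 5 rose, while 23.6% of all 14749 tested genes fell and 26.1% rose in this comparison. The median log2 fold change of the 19 synthesis genes was -0.90, against -0.00286 over all tested genes. Before squalene 8 of 9 genes fell with a list median of -0.80, and after squalene 10 of 10 fell with a median of -0.92. The 4 oxygen-using steps after squalene (Sqle, Cyp51, Msmo1, Sc5d) had a median of -0.89 and the other 6 had -1.01. All 5 of these lists share libraries and no test was made between them. In bulk RNA, fewer cells of a type and less RNA per cell cannot be told apart. The CD8 T cell markers moved too, with 4 of 6 falling, and their part in the result was not tested.

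**Figure D1:**
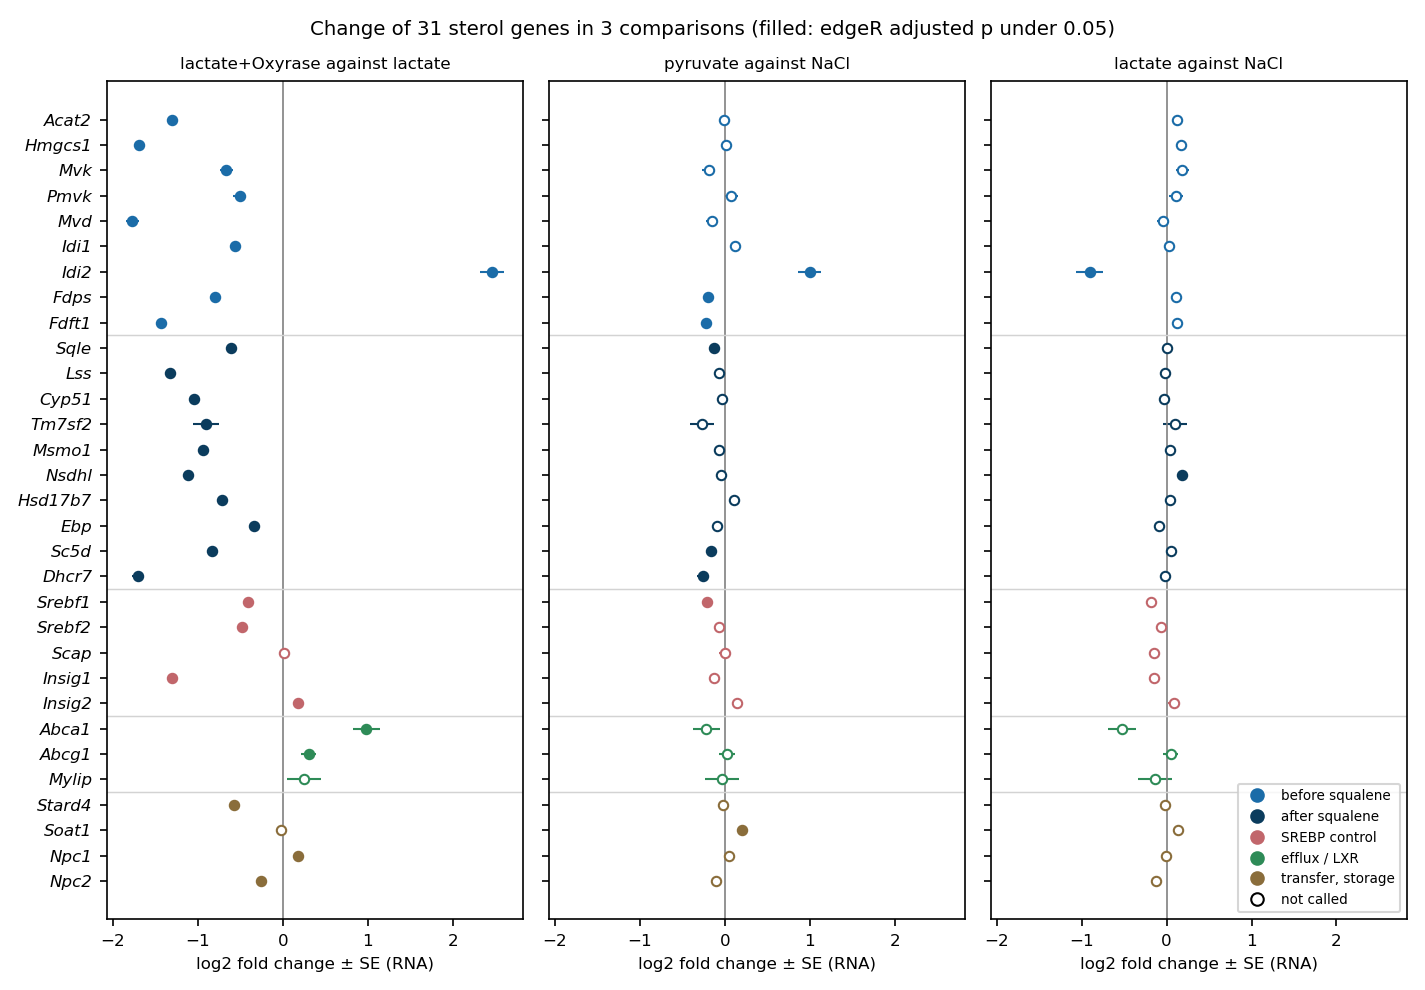
Log2 fold change ± SE of each of the 31 sterol genes (rows, grouped by role and coloured) in 3 comparisons (panels), with filled points for adjusted p under 0.05. In lactate+Oxyrase against lactate 18 of 19 synthesis genes lie left of 0, from -1.77 for Mvd, and Idi2 lies at 2.46; for pyruvate or lactate against NaCl most points lie near 0.

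The early enzymes carried some of the largest decreases. Hmgcs1 (ENSMUSG00000093930), the synthase that makes HMG-CoA, stood at 104, 128 and 108 CPM with lactate+Oxyrase, 351, 318 and 318 CPM with pyruvate, 360.1, 371 and 362 CPM with lactate, and 338, 325 and 312 CPM with NaCl. All 3 lactate+Oxyrase libraries lay far below the other 9, and its level was 3.23-fold lower than with lactate (log2 fold change -1.69 ± 0.06, adjusted p = 9.83e-13). Acat2 (ENSMUSG00000023832), the cytosolic thiolase that joins acetyl-CoA units ahead of it, read 27.8, 33.9 and 30.3 CPM with lactate+Oxyrase, 75.0, 66.6 and 67.0 CPM with pyruvate, 77.6, 76.0 and 73.9 CPM with lactate, and 68.2, 71.5 and 69.9 CPM with NaCl. It fell 2.47-fold against lactate (log2 fold change -1.30 ± 0.06, adjusted p = 2.67e-11), with no overlap between lactate+Oxyrase and any other group. The decarboxylase Mvd (ENSMUSG00000006517), which closes the mevalonate stage, was at 7.70, 9.08 and 7.34 CPM with lactate+Oxyrase, 28.1, 23.8 and 24.8 CPM with pyruvate, 26.5, 27.7 and 27.98 CPM with lactate, and 28.03, 27.6 and 29.2 CPM with NaCl. Its lactate+Oxyrase libraries again stood clear of all others, and it fell 3.41-fold (log2 fold change -1.77 ± 0.08, adjusted p = 1.26e-11), the lowest log2 fold change of the 31 members.

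Both kinases between them changed less. Mvk (ENSMUSG00000041939), mevalonate kinase, had 8.19, 9.04 and 8.50 CPM with lactate+Oxyrase, 11.0, 9.74 and 10.9 CPM with pyruvate, 12.8, 14.0 and 14.0 CPM with lactate, and 12.6, 11.9 and 11.5 CPM with NaCl. The lactate+Oxyrase libraries were lowest and the lactate libraries highest, with no overlap among the 4 groups, and Mvk fell 1.59-fold against lactate (log2 fold change -0.67 ± 0.08, adjusted p = 2.02e-06). Pmvk (ENSMUSG00000027952), phosphomevalonate kinase, gave 23.6, 26.4 and 19.3 CPM with lactate+Oxyrase, 32.3, 31.03 and 33.0 CPM with pyruvate, 33.8, 31.8 and 32.9 CPM with lactate, and 29.4, 29.6 and 32.2 CPM with NaCl. It fell 1.42-fold against lactate (log2 fold change -0.51 ± 0.08, adjusted p = 4.74e-05), and the other 3 groups overlapped each other.

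The isomerase step was split between its genes. Idi1 (ENSMUSG00000058258), the isopentenyl diphosphate isomerase, was counted at 218, 246 and 210.1 CPM with lactate+Oxyrase, 355, 356 and 353 CPM with pyruvate, 317, 349 and 326 CPM with lactate, and 343, 329 and 304 CPM with NaCl. It fell 1.47-fold with lactate+Oxyrase against lactate (log2 fold change -0.56 ± 0.05, adjusted p = 2.12e-07), below every other library. Idi2 (ENSMUSG00000033520), its paralogue, was counted at 14.9, 20.6 and 21.4 CPM with lactate+Oxyrase, 11.6, 12.6 and 14.6 CPM with pyruvate, 3.75, 3.68 and 2.97 CPM with lactate, and 7.29, 6.15 and 5.86 CPM with NaCl. The 4 groups did not overlap, with lactate+Oxyrase highest, then pyruvate, then NaCl, and lactate lowest. Idi2 rose 5.52-fold against lactate (log2 fold change 2.46 ± 0.14, adjusted p = 3.17e-10), the highest value of the 31. The genes lie 60.5 kb apart on chromosome 13, and because they are similar in sequence the authors' counting could divide reads between them, which was not tested.

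Farnesyl diphosphate and squalene synthesis fell as well. Fdps (ENSMUSG00000059743), farnesyl diphosphate synthase, measured 83.3, 94.5 and 83.5 CPM with lactate+Oxyrase, 129.9, 118 and 122 CPM with pyruvate, 163, 149 and 144 CPM with lactate, and 139.8, 137 and 147 CPM with NaCl. Its lactate+Oxyrase libraries were lowest and its pyruvate libraries next, and it fell 1.74-fold against lactate (log2 fold change -0.80 ± 0.06, adjusted p = 2.40e-09). Fdft1 (ENSMUSG00000021273), squalene synthase and the first enzyme committed to sterols, measured 31.4, 28.5 and 30.7 CPM with lactate+Oxyrase, 66.5, 63.9 and 62.4 CPM with pyruvate, 81.6, 81.3 and 81.9 CPM with lactate, and 70.1, 75.7 and 78.4 CPM with NaCl. All 4 groups were separate, in the order lactate+Oxyrase, pyruvate, NaCl and lactate from low to high, and the decrease against lactate was 2.70-fold (log2 fold change -1.43 ± 0.05, adjusted p = 5.39e-13).

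**Figure D2:**
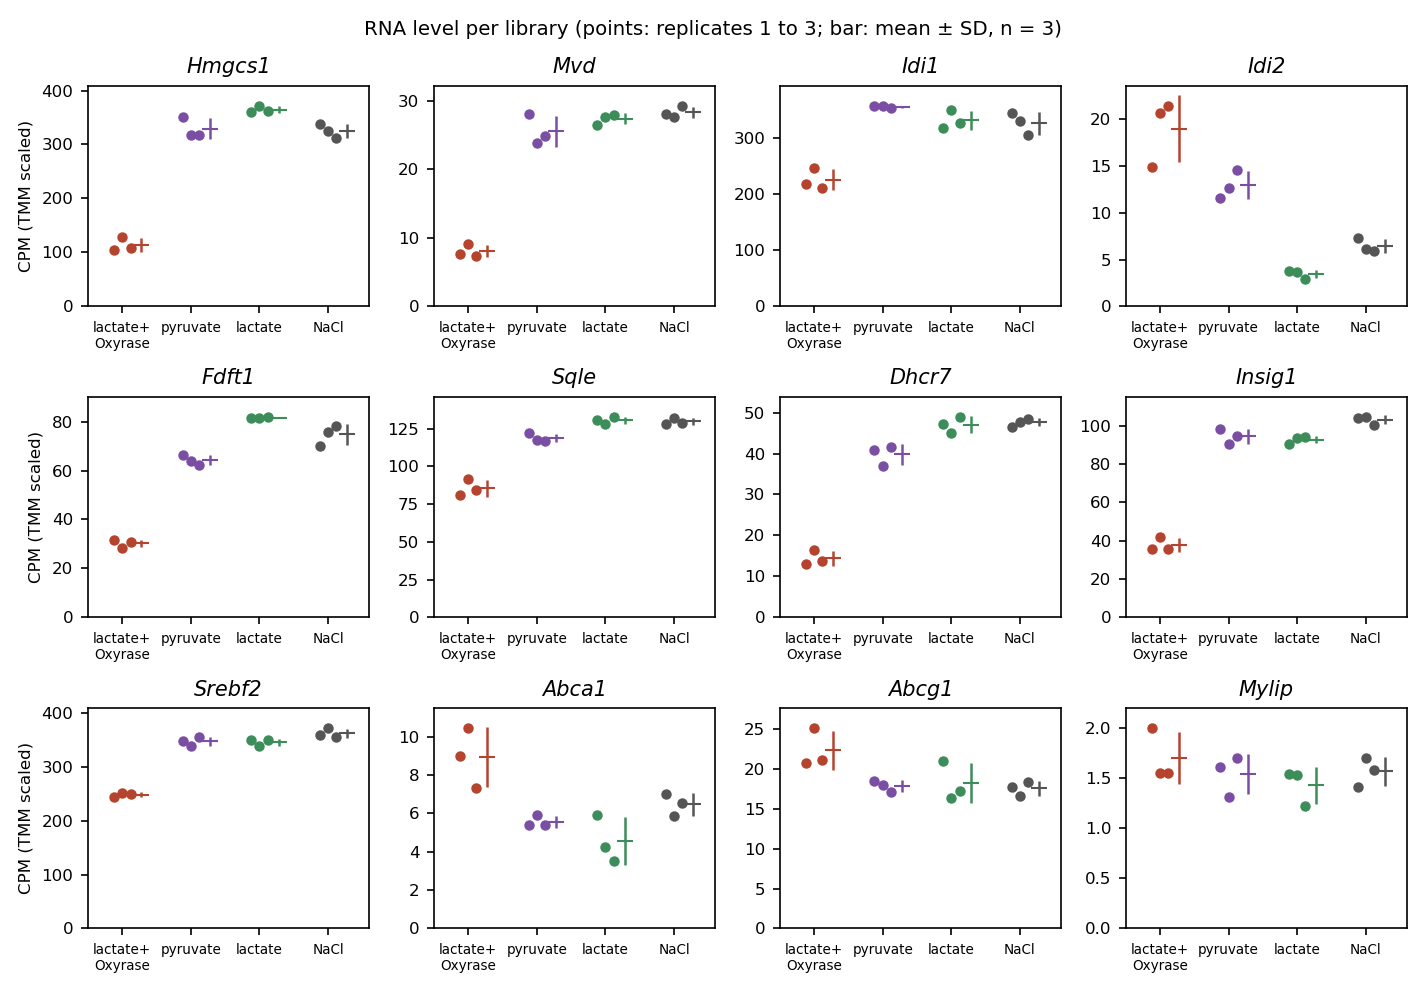
RNA level in CPM (vertical axes, each from 0) of 12 sterol genes in every library, by group, with a bar for the mean ± SD of 3 libraries. The lactate+Oxyrase libraries are the lowest for the synthesis genes Hmgcs1, Mvd, Idi1, Fdft1, Sqle and Dhcr7 and for Insig1 and Srebf2, and the highest for Idi2 and Abca1.

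After squalene, the 4 enzymes that use oxygen all fell with lactate+Oxyrase. Sqle (ENSMUSG00000022351), squalene epoxidase, which takes the first oxygen step of the pathway, had 80.9, 91.9 and 84.1 CPM with lactate+Oxyrase, 122, 118 and 117 CPM with pyruvate, 131, 128 and 133 CPM with lactate, and 128, 132 and 129 CPM with NaCl. Its decrease was 1.52-fold against lactate (log2 fold change -0.61 ± 0.04, adjusted p = 2.54e-09), with pyruvate libraries between lactate+Oxyrase and the other 2 groups. Cyp51 (ENSMUSG00000001467), the lanosterol demethylase, had 151, 160.4 and 142 CPM with lactate+Oxyrase, 319, 300.0 and 311 CPM with pyruvate, 299.8, 320.2 and 312 CPM with lactate, and 308, 321 and 325 CPM with NaCl. The other 3 groups overlapped, and lactate+Oxyrase lay 2.06-fold below lactate (log2 fold change -1.04 ± 0.04, adjusted p = 6.96e-12).

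Msmo1 (ENSMUSG00000031604), the methyl sterol oxidase, was found at 49.6, 55.3 and 50.3 CPM with lactate+Oxyrase, 95.7, 91.8 and 88.7 CPM with pyruvate, 96.2, 102 and 100.2 CPM with lactate, and 94.2, 101 and 95.0 CPM with NaCl. It fell 1.92-fold (log2 fold change -0.94 ± 0.05, adjusted p = 5.26e-11), and all 3 lactate+Oxyrase libraries were the lowest. Sc5d (ENSMUSG00000032018), the desaturase that acts on lathosterol, was found at 49.0, 54.6 and 48.7 CPM with lactate+Oxyrase, 78.2, 75.4 and 80.0 CPM with pyruvate, 83.6, 95.8 and 90.9 CPM with lactate, and 89.6, 83.9 and 87.7 CPM with NaCl. Here too lactate+Oxyrase was lowest and pyruvate next, and the change against lactate was 1.78-fold downward (log2 fold change -0.83 ± 0.05, adjusted p = 1.25e-09).

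The steps after squalene that use no oxygen fell alongside. Lss (ENSMUSG00000033105), lanosterol synthase, which closes the rings, registered 35.6, 41.1 and 36.8 CPM with lactate+Oxyrase, 96.4, 91.5 and 89.8 CPM with pyruvate, 100.2, 89.0 and 97.2 CPM with lactate, and 92.1, 98.6 and 100.1 CPM with NaCl. It was 2.52-fold lower with lactate+Oxyrase than with lactate (log2 fold change -1.33 ± 0.06, adjusted p = 8.09e-12), while the other 3 groups overlapped. Tm7sf2 (ENSMUSG00000024799), a sterol reductase, registered 3.04, 4.37 and 2.97 CPM with lactate+Oxyrase, 5.71, 4.02 and 5.37 CPM with pyruvate, 6.55, 6.30 and 6.55 CPM with lactate, and 5.69, 5.97 and 6.48 CPM with NaCl. Its pyruvate libraries reached down into the lactate+Oxyrase range, and it fell 1.87-fold against lactate (log2 fold change -0.90 ± 0.15, adjusted p = 8.90e-05). Nsdhl (ENSMUSG00000031349), the dehydrogenase that removes methyl groups, registered 15.7, 17.1 and 15.0 CPM with lactate+Oxyrase, 31.1, 28.3 and 29.7 CPM with pyruvate, 35.3, 34.1 and 34.2 CPM with lactate, and 30.0, 30.6 and 30.9 CPM with NaCl. Lactate+Oxyrase libraries were all lowest, 2.17-fold below lactate (log2 fold change -1.12 ± 0.06, adjusted p = 5.49e-11).

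Hsd17b7 (ENSMUSG00000026675), the ketosteroid reductase of the same demethylation, came to 23.4, 26.7 and 25.3 CPM with lactate+Oxyrase, 44.9, 42.3 and 43.1 CPM with pyruvate, 40.9, 42.7 and 40.2 CPM with lactate, and 41.2, 41.3 and 38.0 CPM with NaCl. It fell 1.64-fold against lactate (log2 fold change -0.71 ± 0.06, adjusted p = 1.17e-08) with no overlap with any other group. Dhcr7 (ENSMUSG00000058454), the reductase of the final step, came to 13.1, 16.5 and 13.7 CPM with lactate+Oxyrase, 40.8, 37.0 and 41.5 CPM with pyruvate, 47.3, 44.9 and 48.9 CPM with lactate, and 46.5, 47.8 and 48.5 CPM with NaCl. That was a 3.26-fold decrease against lactate (log2 fold change -1.70 ± 0.07, adjusted p = 6.64e-12), and the pyruvate libraries lay below those with lactate or NaCl. Ebp (ENSMUSG00000031168), the sterol isomerase, had the smallest decrease of the 10, with a range of 27.9 to 33.5 CPM with lactate+Oxyrase against 37.6 to 40.5 CPM with lactate (log2 fold change -0.34 ± 0.06, adjusted p = 0.000141).

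Among the genes of SREBP control, both SREBP genes and Insig1 fell. Srebf2 (ENSMUSG00000022463), which encodes SREBP2, was at 244, 251 and 251 CPM with lactate+Oxyrase, 348, 339 and 355 CPM with pyruvate, 349, 338 and 349.9 CPM with lactate, and 359.7, 372 and 356 CPM with NaCl. Each lactate+Oxyrase library lay below each other library, 1.39-fold lower than lactate on the fitted means (log2 fold change -0.48 ± 0.03, adjusted p = 3.06e-09). Srebf1 (ENSMUSG00000020538), which encodes SREBP1, was at 66.9, 72.2 and 70.0 CPM with lactate+Oxyrase, 95.2, 89.5 and 87.9 CPM with pyruvate, 103, 83.6 and 91.5 CPM with lactate, and 100.2, 110.4 and 104 CPM with NaCl. It fell 1.33-fold against lactate (log2 fold change -0.41 ± 0.06, adjusted p = 3.07e-05) without overlap. Insig1 (ENSMUSG00000045294), itself a target of SREBP, was at 35.4, 42.0 and 35.5 CPM with lactate+Oxyrase, 98.4, 90.6 and 94.6 CPM with pyruvate, 90.6, 93.7 and 93.9 CPM with lactate, and 104, 105 and 100.5 CPM with NaCl. The decrease of Insig1 was 2.46-fold (log2 fold change -1.30 ± 0.05, adjusted p = 6.21e-12), larger on the log2 scale than that of either SREBP gene, though no test compared the genes.

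Insig2 (ENSMUSG00000003721), another brake that is less dependent on SREBP, ranged from 27.0 to 31.6 CPM with lactate+Oxyrase and from 24.4 to 26.5 CPM with lactate. It rose slightly (log2 fold change 0.18 ± 0.06, adjusted p = 0.0203). Without lactate 1, lactate 3 or lactate+Oxyrase 3 that call was lost (adjusted p = 0.0646 to 0.159). Without lactate+Oxyrase 3 its log2 fold change was 0.11. Scap (ENSMUSG00000032485), the escort of SREBP, ranged from 97.5 to 115 CPM with lactate+Oxyrase and from 97.1 to 109 CPM with lactate, and no change was detected (log2 fold change 0.01 ± 0.06, adjusted p = 0.870, 95% interval -0.11 to 0.14).

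The efflux exporters moved the other way. Abca1 (ENSMUSG00000015243), which loads cholesterol onto apolipoproteins, was present at 9.0, 10.5 and 7.31 CPM with lactate+Oxyrase, 5.39, 5.90 and 5.37 CPM with pyruvate, 5.92, 4.25 and 3.50 CPM with lactate, and 7.02, 5.84 and 6.56 CPM with NaCl. Its lactate+Oxyrase libraries were the highest of all, 1.98-fold above lactate (log2 fold change 0.98 ± 0.16, adjusted p = 6.61e-05). Abcg1 (ENSMUSG00000024030), which exports sterol to mature lipoprotein particles, was present at 20.8, 25.2 and 21.2 CPM with lactate+Oxyrase, 18.5, 18.0 and 17.1 CPM with pyruvate, 21.1, 16.3 and 17.3 CPM with lactate, and 17.8, 16.6 and 18.4 CPM with NaCl. Lactate replicate 1 reached into the lactate+Oxyrase range, and Abcg1 rose 1.23-fold (log2 fold change 0.30 ± 0.09, adjusted p = 0.00911). That call was lost without lactate 2 or lactate+Oxyrase 2 (adjusted p = 0.0551 to 0.0682). Mylip (ENSMUSG00000038175), the ligase that marks lipoprotein receptors for degradation, was present at 2.00, 1.55 and 1.55 CPM with lactate+Oxyrase, 1.61, 1.32 and 1.70 CPM with pyruvate, 1.54, 1.53 and 1.22 CPM with lactate, and 1.42, 1.70 and 1.58 CPM with NaCl. Its lactate+Oxyrase libraries lay above the 3 lactate ones, but the change was not past the threshold (log2 fold change 0.25 ± 0.20, adjusted p = 0.314, 95% interval -0.16 to 0.66).

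Macrophages and dendritic cells express ABCA1 strongly, and the summed level of their 6 markers was 5.15 to 6.86 CPM with lactate+Oxyrase, 2.84 to 3.81 CPM with pyruvate, 1.65 to 1.96 CPM with lactate and 1.39 to 1.64 CPM with NaCl. Of the 6, Cd68, which made up most of that sum, and Itgax, a dendritic cell marker, rose with lactate+Oxyrase against lactate. Itgax had 0.585 to 0.963 CPM with lactate+Oxyrase and 0.0254 to 0.105 CPM with lactate. The other 4, Lyz2, Itgam, Adgre1 and Csf1r, were at or under 0.164 CPM in all 12 libraries and did not pass the filter on low counts. The part of such cells in the rise of Abca1 was not tested.

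Of the 4 genes of transfer, storage and lysosomal export, Stard4 (ENSMUSG00000024378), a soluble sterol carrier that SREBP2 induces, read 101, 107 and 102 CPM with lactate+Oxyrase, 152, 157 and 151 CPM with pyruvate, 154, 152 and 155 CPM with lactate, and 157, 161 and 148 CPM with NaCl. It fell 1.49-fold with lactate+Oxyrase against lactate (log2 fold change -0.57 ± 0.04, adjusted p = 1.35e-09), below all other libraries. Npc1 (ENSMUSG00000024413) and Npc2 (ENSMUSG00000021242), which move cholesterol out of lysosomes, parted. Npc1 rose a little (log2 fold change 0.18 ± 0.04, adjusted p = 0.000809) and Npc2 fell (log2 fold change -0.26 ± 0.04, adjusted p = 6.49e-05). Npc1 ranged from 77.0 to 80.6 CPM with lactate+Oxyrase and from 68.2 to 70.8 CPM with lactate, and Npc2 from 84.9 to 92.0 CPM with lactate+Oxyrase and from 103 to 111 CPM with lactate of groups. Soat1 (ENSMUSG00000026600), which esterifies cholesterol for storage, did not pass the threshold (log2 fold change -0.02 ± 0.06, adjusted p = 0.771, 95% interval -0.14 to 0.10).

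Lactate+Oxyrase against NaCl uses the same lactate+Oxyrase libraries and so is no independent repeat. In it 23 members fell and 5 rose, against 24.3% and 26.5% of all tested genes. Of the markers, 5 of the 6 CD8 T cell genes fell and 2 of the 6 macrophage and dendritic cell genes rose, and their part was not tested. Its largest decreases were in Mvd (-1.82 ± 0.08), Dhcr7 (-1.72 ± 0.07), Hmgcs1 (-1.52 ± 0.06) and Insig1 (-1.45 ± 0.06) on the log2 scale, where lactate+Oxyrase against lactate gave -1.77 ± 0.08, -1.70 ± 0.07, -1.69 ± 0.06 and -1.30 ± 0.05 for the same genes. Lists before and after squalene had medians of -0.69 and -0.85, against -0.00115 over all tested genes. Idi2 rose 2.95-fold (log2 fold change 1.56 ± 0.13, adjusted p = 4.10e-08). Abca1 was 1.38-fold higher (log2 fold change 0.46 ± 0.16, adjusted p = 0.0207), while lactate libraries averaged 4.56 ± 1.24 CPM and NaCl libraries 6.47 ± 0.590 CPM (SD, n = 3). The Abca1 call was lost without NaCl 2 or lactate+Oxyrase 2 (adjusted p = 0.0880 to 0.122). Abcg1 rose 1.27-fold (log2 fold change 0.35 ± 0.09, adjusted p = 0.00362), and Mylip did not pass the threshold (log2 fold change 0.11 ± 0.20, adjusted p = 0.667). Scap (log2 fold change -0.13 ± 0.06) passed only with no filter and without lactate+Oxyrase 3 (adjusted p = 0.0102 to 0.0139). Soat1 (log2 fold change 0.11 ± 0.06) passed only without lactate+Oxyrase 1 (adjusted p = 0.0145).

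Pyruvate was set against NaCl to read the compound at equal sodium. All called changes of sterol genes but that of Idi2 were small. Of the 31 members 6 (19.4%) fell and 2 rose, against 6.28% and 9.4% of all tested genes. The 6 were Fdps (-0.19 ± 0.05), Fdft1 (-0.22 ± 0.05), Sqle (-0.13 ± 0.04), Sc5d (-0.16 ± 0.05), Dhcr7 (-0.26 ± 0.07) and Srebf1 (-0.21 ± 0.06), all as log2 fold changes ± SE. Fdft1 fell 1.16-fold (adjusted p = 0.00466), to 64.3 ± 2.08 CPM with pyruvate, against 74.7 ± 4.201 CPM with NaCl (SD, n = 3 each). Sqle, the first oxygen step, fell 1.09-fold (adjusted p = 0.0475), to 119 ± 2.60 CPM with pyruvate, against 129.8 ± 2.01 CPM with NaCl. Idi2 rose 2.00-fold (log2 fold change 1.00 ± 0.14, adjusted p = 0.000100) and Soat1 rose 1.15-fold (log2 fold change 0.20 ± 0.06, adjusted p = 0.0231). The median log2 fold change was -0.01 before and -0.08 after squalene, against 0.000318 over all tested genes. Of the efflux genes Abca1 (-0.22 ± 0.16), Abcg1 (0.03 ± 0.09) and Mylip (-0.03 ± 0.20) none passed. Sqle lost its call without any 1 of the 6 libraries, with no filter and with replicate number as a block (adjusted p = 0.0528 to 0.151). Sc5d lost it without any 1 of the 6 and with the block (adjusted p = 0.0570 to 0.176). Fdps, Srebf1, Soat1 and Dhcr7 each lost theirs without at least 1 library, while Fdft1 and Idi2 kept theirs in every fit run. Idi1 (log2 fold change 0.13 ± 0.05) passed only with no filter (adjusted p = 0.0260). Mvd (log2 fold change -0.15 ± 0.07) passed only without pyruvate 1 (adjusted p = 0.0465). The count of 8 depended on single libraries: 5 were left without NaCl 1, 4 each without NaCl 2, NaCl 3 or pyruvate 3, and 2 without pyruvate 2. In this comparison 5 of the 6 CD8 T cell markers fell, and 2 of the 6 macrophage and dendritic cell markers rose. Their part in the result was not tested.

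Lactate, the reduced partner of pyruvate, was set against NaCl in the same way. Only 1 member fell and 1 rose, against 4.12% and 3.61% of all tested genes. Idi2 fell 1.87-fold (log2 fold change -0.91 ± 0.16, adjusted p = 0.00255), to 3.47 ± 0.432 CPM with lactate, against 6.43 ± 0.754 CPM with NaCl. Nsdhl rose 1.13-fold (log2 fold change 0.18 ± 0.05, adjusted p = 0.0482), and that call was lost without any 1 of the 6 libraries, with DESeq2, with its size factors, with no filter and with replicate number as a block (adjusted p = 0.0504 to 0.141). Abca1 averaged 4.56 ± 1.24 CPM with lactate and 6.47 ± 0.590 CPM with NaCl, which overlapped and did not pass (log2 fold change -0.52 ± 0.16, adjusted p = 0.0596). It passed with DESeq2, with no filter on low counts and without lactate 1, the highest of the lactate libraries (adjusted p = 0.00126 to 0.0256 over these). Srebf1 (log2 fold change -0.18 ± 0.06) passed in the same 3 (adjusted p = 0.00404 to 0.0406). Hmgcs1 (0.17 ± 0.06, adjusted p = 0.00188 to 0.0464) and Insig1 (-0.15 ± 0.05, adjusted p = 0.0255 to 0.0415) passed with the compared groups alone, DESeq2 and no filter. Scap (-0.14 ± 0.06) passed with no filter (adjusted p = 0.0329). Synthesis medians were 0.11 before and 0.02 after squalene. The 95% interval lay within 1.5-fold of no change for 29 of the 31 members, and for 30 of 31 in pyruvate against NaCl.

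Pyruvate and lactate differ by oxidation of the hydroxyl of lactate to the ketone of pyruvate, and both were given at 20 mM over the same day. NaCl was given at that dose too, and the comparisons with it stand above, so this is the third of 3 pairs at a matched dose. Of the 31 members 7 fell and 1 rose, against 10.9% and 13.0% of all tested genes. Of the markers, 2 of the 6 CD8 T cell genes fell and 1 of the 6 macrophage and dendritic cell genes rose, and their part was not tested here either. The falls were Mvk (log2 fold change -0.37 ± 0.08, adjusted p = 0.00202), Fdft1 (log2 fold change -0.34 ± 0.05, adjusted p = 4.55e-05), Fdps (log2 fold change -0.30 ± 0.05, adjusted p = 0.000694), Dhcr7 (log2 fold change -0.24 ± 0.06, adjusted p = 0.0113), Nsdhl (log2 fold change -0.22 ± 0.05, adjusted p = 0.00630), Sc5d (log2 fold change -0.21 ± 0.05, adjusted p = 0.00679) and Sqle (log2 fold change -0.13 ± 0.04, adjusted p = 0.0253). They lay on both sides of squalene, 3 before and 4 after, and none exceeded 1.29-fold. Fdft1, for example, averaged 64.3 ± 2.08 CPM with pyruvate and 81.6 ± 0.285 CPM with lactate. Idi2 rose 3.74-fold (log2 fold change 1.90 ± 0.15, adjusted p = 1.12e-07), to 12.9 ± 1.49 CPM with pyruvate, against 3.47 ± 0.432 CPM with lactate.

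For SREBP control, efflux and transfer genes no difference between pyruvate and lactate was called. The intervals were narrow for Srebf2 (95% interval -0.06 to 0.08 in log2), Insig1 (95% interval -0.08 to 0.14) and Stard4 (95% interval -0.08 to 0.08), and wide for Abca1 (95% interval -0.04 to 0.65) and Mylip (95% interval -0.31 to 0.52). In 28 of 31 members the interval lay within 1.5-fold either way, the exceptions being Idi2, Tm7sf2 and Abca1. Calls that did not survive single libraries were Sqle without lactate 1, lactate 3, pyruvate 2 or pyruvate 3 (adjusted p = 0.0622 to 0.0943) and Dhcr7 without lactate 3 or pyruvate 2 (adjusted p = 0.0583 to 0.0703). Some members passed only in alternatives. Abca1 passed without lactate 1 (adjusted p = 0.0235). Scap passed with the compared groups alone and with no filter (adjusted p = 0.0175 to 0.0478). Hmgcs1 passed in those 2, with DESeq2 and without pyruvate 1 (adjusted p = 0.00365 to 0.0461). Tm7sf2 passed with no filter and without pyruvate 1 (adjusted p = 0.0311 to 0.0484), and Acat2 without pyruvate 1 (adjusted p = 0.0445).

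**Figure D3:**
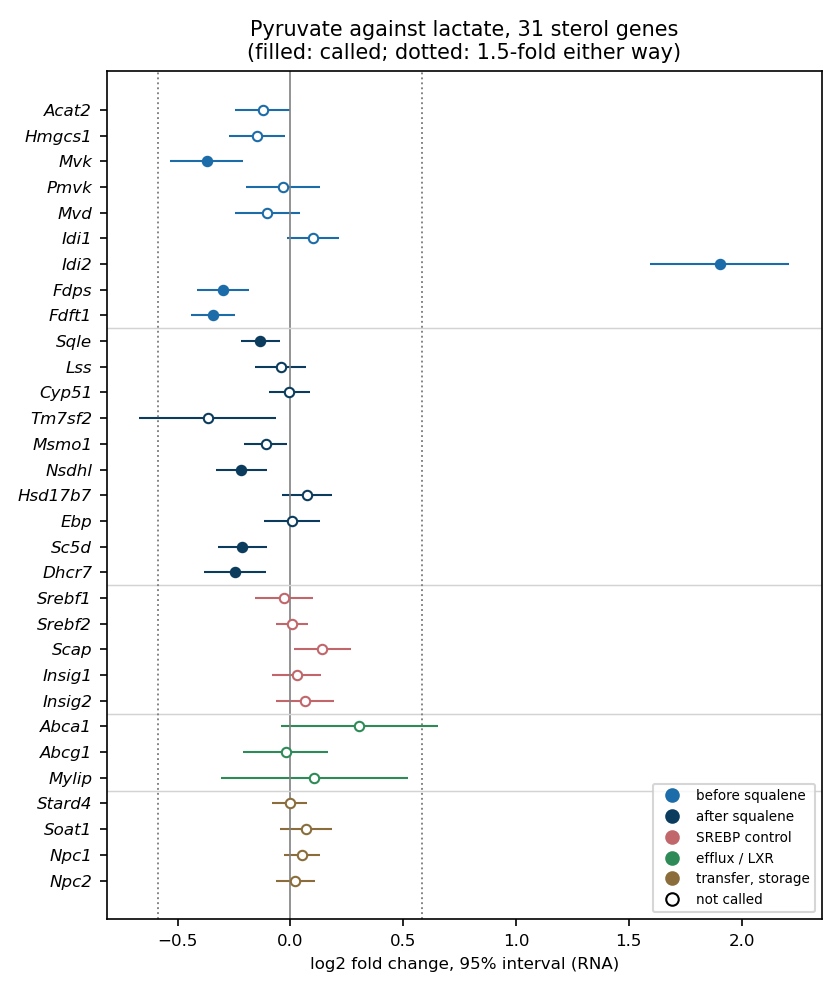
Log2 fold change of each of the 31 sterol genes in pyruvate against lactate, with its 95% interval and dotted lines at 1.5-fold either way; filled points have adjusted p under 0.05. All but Idi2 at 1.90 lie between -0.37 and 0.31.

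Chromatin at the same genes was read from ATAC-seq peaks in mm10, the build of the processing notes and the same assembly as GRCm38. Within 1 kb of an annotated gene end lay 39 peaks of 28 members, and Pmvk, Fdft1 and Insig2 had none. Of the 39, 24 were at the 5′ end, 7 at the 3′ end and 8 at genes with no strand in the table, and 13 also lay within 1 kb of another gene. With lactate+Oxyrase against lactate 10 member peaks fell and 3 rose, against 19.7% and 6.76% of the 19609 gene-end peaks, and the median was -0.15, against -0.10 over all gene-end peaks. The count of 13 was 7 without lactate 1, 7 without lactate 2 and 8 without lactate+Oxyrase 3. Against NaCl 26 fell and 2 rose, against 38.7% and 10.7%, with medians of -0.40 for members and -0.17 for all.

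Transcripts were set beside the widest gene-end peak of each of 28 members. With lactate+Oxyrase against lactate 21 of these transcripts fell, and the peak fell in 5 of the 21, rose in 1 and was not called in 15, where 19.7% of all gene-end peaks fell. The count of 5 is thus near the background of that comparison. With lactate+Oxyrase against NaCl the peak fell in 15 of 21 fallen transcripts and was not called in 6. Among the members whose transcript did not fall, the peak fell too at Scap, Abcg1, Mylip, Soat1 and Npc1. It rose at Idi2 and was not called at Abca1, so fallen peaks were not confined to fallen transcripts. There 38.7% of all gene-end peaks fell. Both comparisons use the same lactate+Oxyrase libraries. Both shares cover every gene-end peak, whereas the transcripts were set beside only the widest peak of each gene. The peak over the Hmgcs1 start (chr13:119689966-119690968), which contains the promoter window printed above, had 117, 142 and 122 CPM with lactate+Oxyrase, 139.6, 144 and 127 CPM with pyruvate, 149, 124 and 126 CPM with lactate, and 152, 159.6 and 126 CPM with NaCl. All 4 groups overlapped, and the change against lactate was not past the threshold (log2 fold change -0.06 ± 0.10, adjusted p = 0.682), while the transcript was 3.23-fold lower. At the Insig1 start (chr5:28070157-28072170) the difference from lactate was -0.18 ± 0.09 and was not called. At the Idi1 start (chr13:8885268-8886232) it was 0.02 ± 0.09 and was not called. Against NaCl the Insig1 and Idi1 peaks fell (log2 fold change -0.37 ± 0.09 and -0.25 ± 0.09). The Hmgcs1 peak was not called there either (log2 fold change -0.20 ± 0.10).

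Dhcr7 was among the 5 members whose transcript and peak both fell against lactate. Its peak at the 5′ end (chr7:143822440-143823583), shared with the end of Nadsyn1, had 30.0, 31.4 and 28.9 CPM with lactate+Oxyrase, 53.3, 51.1 and 46.0 CPM with pyruvate, 45.4, 39.8 and 41.8 CPM with lactate, and 50.7, 51.7 and 42.6 CPM with NaCl. Its lactate+Oxyrase libraries lay below the other 9, and the peak fell against lactate (log2 fold change -0.49 ± 0.09, adjusted p = 6.24e-05). Srebf2 had a peak over its start (chr15:82146623-82147511) with 41.2, 47.8 and 43.8 CPM with lactate+Oxyrase, 82.4, 83.8 and 70.7 CPM with pyruvate, 61.4, 55.5 and 53.5 CPM with lactate, and 86.6, 88.7 and 63.2 CPM with NaCl. Again no other library reached down to lactate+Oxyrase, and the peak fell against lactate (log2 fold change -0.36 ± 0.10, adjusted p = 0.00665), as did a smaller peak just inside the gene (chr15:82147690-82147910, log2 fold change -0.60 ± 0.16, adjusted p = 0.00301). For Mvd the widest peak lay past its 3′ end and also within 1 kb of Cyba (chr8:122432419-122433453, log2 fold change -0.46 ± 0.09, adjusted p = 0.000109). The peak over the Mvd promoter (chr8:122443157-122443912), also within 1 kb of the gene 9330133O14Rik, did not pass (log2 fold change -0.22 ± 0.10, adjusted p = 0.0905).

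Among the efflux genes, Abcg1 paired a higher transcript with a lower peak. The peak at its lower-coordinate end (chr17:31057490-31058145) had 10.2, 11.7 and 13.1 CPM with lactate+Oxyrase, 21.5, 22.3 and 18.3 CPM with pyruvate, 14.6, 14.9 and 15.0 CPM with lactate, and 22.5, 22.8 and 18.7 CPM with NaCl. The lactate+Oxyrase libraries were lowest and the lactate libraries next, below all pyruvate and NaCl libraries. The peak fell against lactate (log2 fold change -0.35 ± 0.11, adjusted p = 0.0104). The Abca1 start (chr4:53158710-53160259) showed no called change (log2 fold change 0.06 ± 0.09, adjusted p = 0.636) beside a transcript 1.98-fold higher. The Mylip start (chr13:45389339-45390192) gave log2 fold change -0.19 ± 0.10, adjusted p = 0.143. Idi2 had 1 gene-end peak, inside its 3′ end (chr13:8960335-8960543), with 3.07, 2.74 and 3.36 CPM with lactate+Oxyrase, 2.35, 1.65 and 2.11 CPM with pyruvate, 2.12, 1.15 and 2.65 CPM with lactate, and 1.89, 1.66 and 2.15 CPM with NaCl. All 3 lactate+Oxyrase libraries lay above the other 9 at this weak peak, and it rose (log2 fold change 0.61 ± 0.23, adjusted p = 0.0375) in the same direction as the transcript. The other rises were at Ebp (chrX:8192437-8193657, shared with Porcn, log2 fold change 0.23 ± 0.09, adjusted p = 0.0451) and at the smaller of the Cyp51 peaks (chr5:4105258-4105447, log2 fold change 0.56 ± 0.17, adjusted p = 0.0108), and both transcripts fell.

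**Figure D4:**
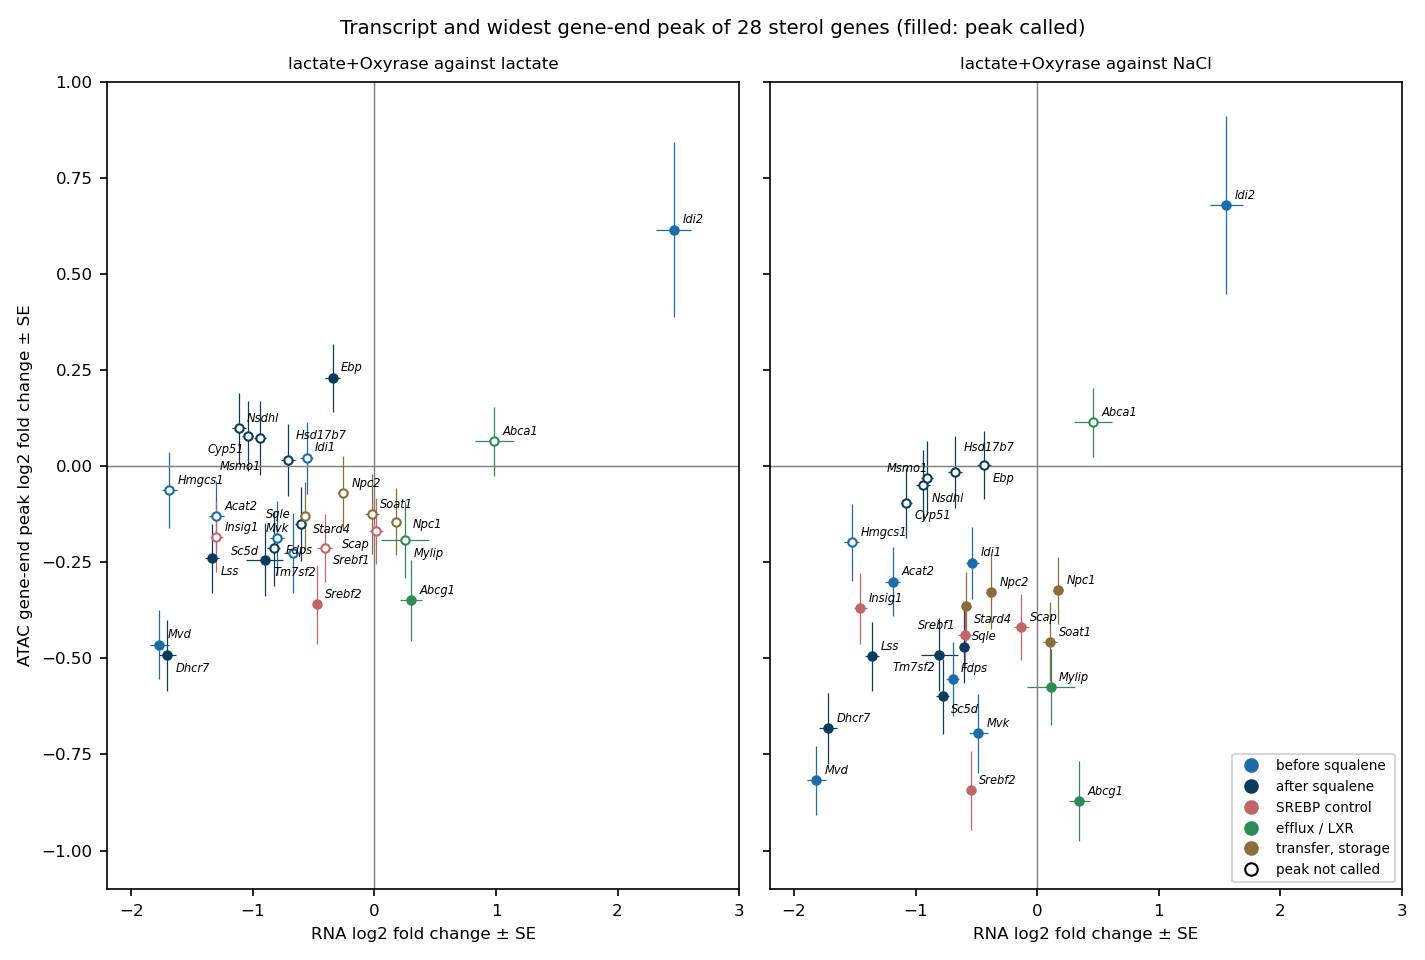
RNA log2 fold change (horizontal) against the log2 fold change of the widest ATAC gene-end peak (vertical), each ± SE, for 28 sterol genes in lactate+Oxyrase against lactate and against NaCl; filled points are peaks with adjusted p under 0.05. Hmgcs1 lies far left at -1.69 with its peak at -0.06, and Abcg1 lies right of 0 with its peak at -0.35.

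For the salts without Oxyrase, lactate against NaCl had 11 member peaks that fell and 0 that rose, against 14.0% and 0.597% of all gene-end peaks, with medians of -0.23 and -0.08. The count was 1 without NaCl 2, 2 without lactate 3, 3 without NaCl 1, 3 without lactate 2 and 21 without NaCl 3. The peak over the Srebf2 start was one of them (log2 fold change -0.48 ± 0.10, adjusted p = 0.00199), and the Abcg1 peak another (log2 fold change -0.52 ± 0.10, adjusted p = 0.00106). Pyruvate against NaCl had 0 called member peaks in edgeR and 0 in DESeq2, where 0.0% of all gene-end peaks were called, and 0 of the 39 had an unadjusted p under 0.05, against 607 of the 19609. Pyruvate against lactate had 14 member peaks that rose and 0 that fell, against 16.8% and 2.61%, among them Abcg1 (log2 fold change 0.48 ± 0.10, adjusted p = 0.00129), Srebf2 (log2 fold change 0.48 ± 0.10, adjusted p = 0.00146) and Sqle (log2 fold change 0.37 ± 0.10, adjusted p = 0.00736). This count was 7 without lactate 2, 6 without lactate 3, 7 without pyruvate 1 and 6 without pyruvate 2. Both comparisons share the lactate libraries. The Sqle transcript fell in pyruvate against lactate while its peak rose.

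Neighbouring pathways were counted from written lists of genes that are not members, also chosen with earlier results of these data known. Of 10 fatty acid genes driven by SREBP1, 9 fell and 1 rose with lactate+Oxyrase against lactate, where 23.6% of all tested genes fell and 26.1% rose. Elovl6, a fatty acid elongase, averaged 16.2 ± 2.39 CPM with lactate+Oxyrase and 78.9 ± 4.54 CPM with lactate (log2 fold change -2.28 ± 0.08, adjusted p = 5.39e-13). Me1, the cytosolic malic enzyme that supplies NADPH, was the exception, at 1.22 ± 0.359 CPM with lactate+Oxyrase and 0.114 ± 0.0987 CPM with lactate, which is near the floor of 3 counts (log2 fold change 3.28 ± 0.58, adjusted p = 0.000155). Against NaCl 5 of the 10 fell with pyruvate and 0 rose, where 6.28% of all genes fell and 9.4% rose. With lactate 0 fell and 2 rose, where 4.12% fell and 3.61% rose. Elovl6 fell with pyruvate (log2 fold change -0.60 ± 0.07, adjusted p = 2.34e-05) and rose with lactate (log2 fold change 0.25 ± 0.07, adjusted p = 0.0348), and in pyruvate against lactate 5 of the 10 fell and 0 rose, where 10.9% fell and 13.0% rose.

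Of 13 genes of lipoprotein receptors and sterol traffic, 4 rose and 4 fell with lactate+Oxyrase against lactate, near the 26.1% and 23.6% of all tested genes. Lrp1, a large endocytic receptor, averaged 29.1 ± 8.42 CPM with lactate+Oxyrase and 2.09 ± 0.165 CPM with lactate (log2 fold change 3.81 ± 0.20, adjusted p = 9.37e-11). Vldlr, the very low density lipoprotein receptor, averaged 37.9 ± 11.4 CPM with lactate+Oxyrase and 5.44 ± 0.584 CPM with lactate (log2 fold change 2.80 ± 0.16, adjusted p = 3.17e-10). Both rose in pyruvate against NaCl too, Lrp1 by 0.94 and Vldlr by 0.73 on the log2 scale. Lrp1 is also abundant in macrophages, whose markers were given above, and their part in this was not tested.

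Of 8 genes that process or degrade the SREBP machinery, 6 rose and 0 fell with lactate+Oxyrase against lactate, where 26.1% of all tested genes rose and 23.6% fell. Paqr3, a Golgi anchor of SCAP, rose most (log2 fold change 1.18 ± 0.16, adjusted p = 1.08e-05). Of 10 LXR and oxysterol genes 7 were tested, and 1 of them, the LXR partner Rxra, rose (log2 fold change 0.40 ± 0.09, adjusted p = 0.00157). In the prenyl branch, which uses farnesyl diphosphate for other products, 4 of 9 genes fell and 2 rose, to be read against the same shares. Its named members were Pdss1 (log2 fold change -0.38 ± 0.05, adjusted p = 1.76e-05) and Pdss2 (log2 fold change -0.29 ± 0.09, adjusted p = 0.0108), which build the side chain of ubiquinone. Against NaCl, with pyruvate 1 of 8 processing genes rose and 1 fell, 1 of 7 LXR genes rose and 1 fell, and 2 of 9 prenyl genes rose and 2 fell, where 9.4% of all genes rose and 6.28% fell. With lactate 2 of 8 processing genes and 2 of 7 LXR genes fell, where 4.12% of all genes did, and the 9 prenyl genes had log2 fold changes between -0.18 and 0.15.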

How the data were processed

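RNA-seq and ATAC-seq were each measured in 12 libraries, 3 per group. The submitters' processing notes name mm10 as build and, as tools, Bowtie2 2.2.0, RSEM 1.2.12, edgeR 3.20.9, bedtools, MACS2, Picard, BWA and Trimmomatic. The RNA table deposited by the authors holds RSEM expected counts per gene. Within a tolerance of 1e-09, 99.2% of non-zero entries were whole. Non-whole entries above 1 occurred in 460 genes, 448 of them at 0 throughout 1 replicate number, so the values appear to have been adjusted by replicate number before deposit. The ATAC table deposited by the authors holds whole counts in 75802 peaks.

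From these, expected counts were rounded, low features were removed with filterByExpr (14749 genes and all peaks stayed), and libraries were scaled by TMM. A quasi-likelihood model per assay was fitted with edgeR 4.0.16 in R 4.3.3 to all 12 libraries (4 groups, no replicate term), with p-values adjusted by Benjamini and Hochberg over all features and a threshold of 0.05. SEs were obtained from the estimate and its F statistic. The reference table gave a symbol to 55141 of 55401 gene identifiers. Peaks within 1 kb of an annotated GRCm38.p6 gene end counted as gene-end peaks. Promoter sequences are RefSeq's. The procedure was tested on simulated counts.

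The members and all lists were chosen with earlier results of these data known. Every library's value is given for members called in at least 1 comparison with a log2 fold change there of 0.5 or more in size and for 8 named genes whatever their values, and the rest by range. Other pathway genes, at most 2 per list and comparison, are those with the largest change among the called. Replicates were not paired, since the labels do not say what the replicate number marks. Alternatives were DESeq2 1.42.0, its size factors, no filter, a threshold of 0.01, only the groups compared, replicate number as a block, gene ends at 2.5 kb, and leaving out each library. Values of some genes are not reported here.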

Additional observations from a re-analysis of the deposited data

How the results depend on the processing

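Both Oxyrase comparisons kept 27 to 29 called members in RNA under every alternative run. Pyruvate against NaCl, with 8, had 2 at a threshold of 0.01 and 2 to 6 without single libraries. Lactate against NaCl, with 2, had 4 with the compared groups alone, 5 with DESeq2, 1 with DESeq2-type size factors, 6 with no filter, 1 with the replicate block, 1 at a threshold of 0.01 and 1 to 3 without single libraries. Pyruvate against lactate, with 8, had 6 to 11 without single libraries. In ATAC, lactate against NaCl, with 11, had 17 with DESeq2, 4 at 0.01 and 1 to 21 without single libraries. Lactate+Oxyrase against lactate, with 13, had 5 at 0.01 and 7 to 10 without single libraries, and lactate+Oxyrase against NaCl, with 28, had 24 to 28. Pyruvate against lactate, with 14, had 7 at 0.01 and 6 to 16 without single libraries. Pyruvate against NaCl had 0 peaks throughout. The causes were not tested, except that a threshold of 0.01 is stricter and that leaving out a library leaves fewer samples. With replicate number as a block the counts in RNA were 6 for pyruvate against NaCl, 1 for lactate against NaCl, 28 for each Oxyrase comparison and 8 for pyruvate against lactate. In ATAC they were 0 for pyruvate against NaCl, 16 for lactate against NaCl, 17 for lactate+Oxyrase against lactate, 29 for lactate+Oxyrase against NaCl and 16 for pyruvate against lactate. The labels do not say whether a replicate number marks a shared batch. Deviations of same-numbered ATAC libraries correlated at -0.15 to 0.17 (median 0.06, against -0.03 for different numbers), and in RNA at -0.21 to -0.08, where the apparent adjustment by replicate number makes the check void. No called gene changed direction. Nsdhl in lactate against NaCl lost its call in 10 alternatives, Sqle in pyruvate against NaCl in 8 and Sc5d there in 7. P-values in RNA may be too low given the apparent adjustment by replicate number before deposit, and low genes such as Mylip had wide intervals.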
